A study of Homo sapiens with 32 samples.

Results

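The loops described here are those on human chromosomes 4, 13 and 18, in 4 lists of chromatin loops that came from in situ Hi-C on HEK293, a human embryonic kidney cell line. They were chosen by chromosome alone, with no measured value, and number 4775 of the 45629 loops of the 4 lists. The cells were wild type or carried eGFP-YAP, a fluorescent fusion of the transcriptional co-activator YAP. Each was profiled untreated and after 1 h in 200 mM sorbitol, a sugar alcohol that draws water out of cells. The labels give 3 wild-type samples and 4 eGFP-YAP samples for each condition. The design text also describes 1 h of serum starvation before sorbitol for the eGFP-YAP cells, and the promoter and clonality of the fusion are not given in the sources used here. Wild-type control cells had 1871 of these loops and wild-type sorbitol cells 530, and eGFP-YAP cells had 2009 in control and 365 with sorbitol.

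A chromatin loop is a pair of sites on one chromosome that touch more often than their neighbours. Many form when cohesin draws in DNA until it meets CTCF bound at 2 sites whose motifs point towards each other, and others join active promoters or enhancers. Gene-poor chromosomes hold long stretches without genes, in which genes of neuronal adhesion and development often stand alone. The 3 chromosomes were the lowest of the 23 in protein-coding genes, with 2.82 gene starts per Mb on chromosome 13, 3.31 on chromosome 18 and 3.98 on chromosome 4, against 6.59 over all 23. These values are per Mb of full length, of which 16.4 Mb of chromosome 13 is unsequenced.

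Each condition has 1 pooled list with no replicate, so no test could be made, and the 95% intervals below are exact intervals that cover counting error only. Sequencing depth, which also sets how many loops a caller finds, is not given in the sources used here, and its part in the results was not tested. The names of the lists carry a source that differs between the lines, so line and source cannot be told apart. A loop counted as called again, or shared, when a loop of the other condition of the same line had both anchor centres within 10 kb. The remaining control loops are called control-only and the remaining sorbitol loops sorbitol-only.

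The sequences at the anchors of a few loops show how CTCF motifs can lie in a loop, and were chosen among named loops with a motif. One pair comes from the longest loop called in all 4 lists, a loop of 1030 kb on chromosome 13 that encloses the start of KLHL1, 570 kb from its left anchor and 459 kb from its right anchor. Another pair comes from control-only loops of both lines, on chromosome 18, 178 kb from the start of SMAD2, a transducer of TGF-beta signals, and on chromosome 13 at the end of a loop of 1575 kb, 7 kb from the start of PCDH9, a neuronal protocadherin. The last pair comes from the longest sorbitol-only loop of both lines, 1095 kb on chromosome 4. Its left anchor lies 90 kb from the start of MAD2L1, a spindle checkpoint gene, and its right anchor 25 kb from that of TNIP3. All 6 lie outside protein-coding genes. Each is written 5′ to 3′ on the strand that carries the motif (hg38), and capitals mark the match to the CTCF core motif.
All 4 lists, left anchor, chr13:69537645-69537678, plus strand, 1 mismatch: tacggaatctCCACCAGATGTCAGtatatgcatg
All 4 lists, right anchor, chr13:70568750-70568783, minus strand, 1 mismatch: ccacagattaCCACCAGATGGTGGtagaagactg
Control-only, SMAD2 side, chr18:47754713-47754746, minus strand, 0 mismatches: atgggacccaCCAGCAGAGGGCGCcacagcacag
Control-only, PCDH9 side, chr13:67238465-67238498, minus strand, 1 mismatch: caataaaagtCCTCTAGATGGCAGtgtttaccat
Sorbitol-only, left anchor, chr4:120156300-120156333, plus strand, 0 mismatches: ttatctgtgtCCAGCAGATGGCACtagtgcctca
Sorbitol-only, right anchor, chr4:121252395-121252428, minus strand, 0 mismatches: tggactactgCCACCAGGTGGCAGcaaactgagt
In the loops of all 4 lists and of sorbitol alone, the left match lies on the plus strand and the right match on the minus strand, so the motifs point towards each other across the loop. The right anchor of the sorbitol-only loop also holds an overlapping match on the plus strand, with 1 mismatch. At the loops on the SMAD2 and PCDH9 sides the right match points into the loop and the left anchor holds no match. A motif at both anchors is not typical of sorbitol-only loops: of the 55 found in both lines, 2 had it (3.64%, 0.443 to 12.5), counted at wild-type anchors. Nor is it typical of control-only loops, with 34 of the 496 found in both lines (6.85%), a share within that interval. Of the 30 loops of all 4 lists, 7 had it (23.3%). The highest-scoring sorbitol-only loops of chromosomes 13 and 18 held no motif at either anchor.

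Loops called after sorbitol were fewer on each of the 3 chromosomes in both lines. In wild type there were 0.283 sorbitol loops per control loop (95% interval 0.257 to 0.312), against 0.404 (0.391 to 0.417) on the other 20 chromosomes. In eGFP-YAP cells it was 0.182 (0.162 to 0.203), against 0.307 (0.298 to 0.317) elsewhere. Single chromosomes elsewhere were as low: in eGFP-YAP cells chromosome X had 0.152 and chromosome 8 had 0.168. In wild type chromosomes 3, X, 5 and 2 had 0.297, 0.303, 0.317 and 0.320, below chromosome 13. In wild type, chromosome 4 went from 842 to 213 loops, chromosome 13 from 729 to 234 and chromosome 18 from 300 to 83. The wild-type ratios were 0.253, 0.321 and 0.277 in that order, with intervals that overlapped. In eGFP-YAP cells, chromosome 4 went from 954 to 160 loops, chromosome 13 from 645 to 137 and chromosome 18 from 410 to 68, ratios of 0.168, 0.212 and 0.166 whose intervals overlapped. Chromosome 13 had the highest ratio of the 3 in both lines. It has the fewest genes per Mb of full length, but that length includes 16.4 unsequenced Mb. Over sequenced bases it is close to chromosome 18, with 323 gene starts in 98.0 Mb against 266 in 80.1 Mb. The share of each list that lay on the 3 chromosomes was 12.3% in wild-type control and 8.97% after sorbitol, and 10.6% and 6.54% in eGFP-YAP cells.

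Few control loops were called again. In wild type 107 of 1871 (5.72%, 4.71 to 6.87) had a partner after sorbitol, and in eGFP-YAP cells 114 of 2009 (5.67%, 4.70 to 6.78). The control-only share was thus 94.3% in both lines, beside 92.2% of wild-type and 90.7% of eGFP-YAP control loops over all chromosomes. Sorbitol-only loops made up 423 of 530 in wild type (79.8%, 76.1 to 83.1) and 251 of 365 in eGFP-YAP cells (68.8%, 63.7 to 73.5). These shares lay close to those over all chromosomes, 79.9% and 68.4%. As a measure of how far any pair of these lists matches, the control lists of the lines shared 601 of 1871 wild-type loops (32.1%) and 600 of 2009 eGFP-YAP loops (29.9%), and the sorbitol lists shared 103 loops, 19.4% and 28.2% of each. Shared loops had high scores before stress: their median score lay at percentile 83.3 of the control list in wild type and 80.2 in eGFP-YAP cells, while control-only loops lay at 48.5 and 47.1.

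To place loss and gain along the chromosomes, they were cut into 1 Mb windows, and 371 of 387 windows remained after 16 with mostly unsequenced bases, all on chromosome 13, were left out. A loop belongs to the window that holds its midpoint. Windows were grouped by their protein-coding gene starts into 83 with 0, 159 with 1 to 4, 100 with 5 to 9 and 29 with 10 or more. Before stress, gene-rich windows already held more loops, with 1.55, 5.14, 6.86 and 8.21 control loops per window in wild type from the lowest class to the highest. After sorbitol the same classes held 0.277, 1.01, 2.27 and 4.10.

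Relative to control, more loops were called with sorbitol where genes were dense. The quantity compared is sorbitol loops per control loop. In wild type it was 0.178 (23 of 129 loops, interval 0.109 to 0.279) in windows without gene starts, 0.197 (0.165 to 0.233) with 1 to 4, 0.331 (0.284 to 0.385) with 5 to 9 and 0.50 (0.398 to 0.626) with 10 or more. In eGFP-YAP cells it was 0.0699 (10 of 143 loops, 0.0328 to 0.132), 0.133 (0.108 to 0.163), 0.198 (0.165 to 0.236) and 0.337 (0.264 to 0.427). The lowest classes do not differ from each other beyond their intervals in either line, and the highest class lies clear of both. The ratio of the densest windows over that of windows without gene starts was 2.80-fold for wild type (1.68 to 4.82) and 4.82-fold for eGFP-YAP (2.41 to 10.7). The densest windows held 12.7% of wild-type control loops and 22.5% of wild-type sorbitol loops, and 14% and 26.0% in eGFP-YAP cells. Between the control lists of the lines no such order appeared: eGFP-YAP over wild type was 1.11, 1.00, 1.11 and 1.18 from the lowest class to the highest.

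**Figure D1:**
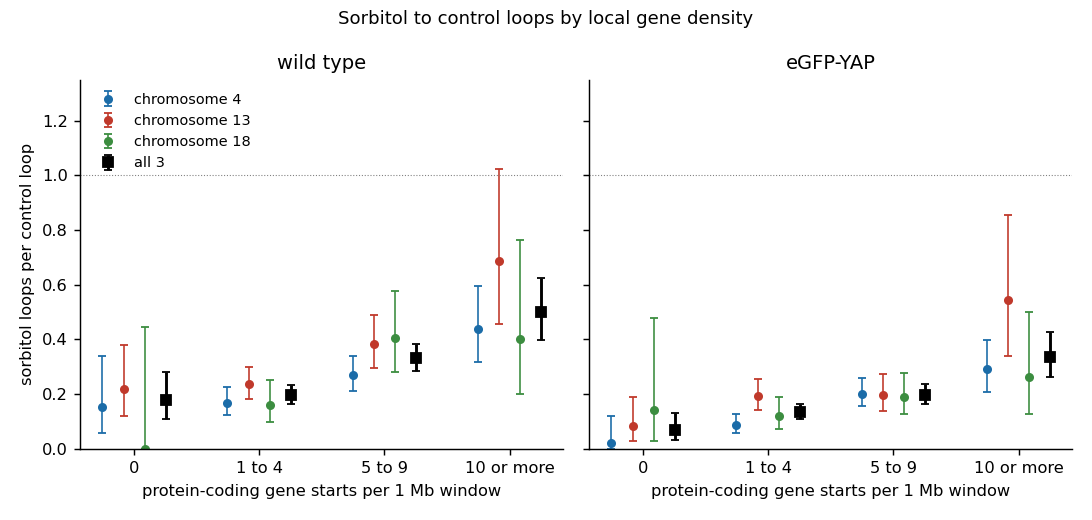
Sorbitol loops per control loop (vertical axis) in 1 Mb windows grouped by protein-coding gene starts (horizontal axis), for each chromosome and all 3 together, in wild type (left) and eGFP-YAP cells (right). Points are ratios and bars exact 95% counting intervals; over all 3 chromosomes the ratio is 0.178 in the windows without gene starts and 0.50 in the densest in wild type, and 0.0699 and 0.337 in eGFP-YAP cells.

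By chromosome, the order was clearest on chromosomes 4 and 13. Chromosome 4 gave 0.152 in windows without gene starts and 0.439 in the densest in wild type, and 0.0204 (1 of 49 loops) and 0.291 in eGFP-YAP cells. Chromosome 13 gave 0.219 and 0.688 in wild type, and 0.0822 and 0.544 in eGFP-YAP cells. Chromosome 18 had few loops to compare: its windows without gene starts held 10 control and 0 sorbitol loops in wild type (a ratio of up to 0.446) and 21 and 3 in eGFP-YAP cells, against 0.400 and 0.261 in the densest. On chromosome 18 the eGFP-YAP difference between these classes is 1.83-fold with an interval from 0.425 to 11.1, so no difference was detectable there.

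Within the upper classes of local gene density the eGFP-YAP ratio was lower here than on the other 20 chromosomes. It was 0.198 against 0.255 (0.240 to 0.271) with 5 to 9 gene starts, and 0.337 against 0.485 (0.464 to 0.506) with 10 or more. These intervals do not overlap. The class of 10 or more has no upper limit, and the other 20 include chromosome 19, with 25.2 gene starts per Mb. Gene density within a class and GC content were not matched between the sets. In wild type the intervals overlapped in these classes (0.331 against 0.338, and 0.50 against 0.630). Windows without gene starts gave 0.178 against 0.295 in wild type and 0.0699 against 0.105 in eGFP-YAP cells, again with overlapping intervals. The densest class thus had the highest ratio on the other 20 chromosomes too, in both lines. Gene density and base composition moved together (Spearman's rho 0.659 over the 371 windows). Divided into 4 parts by GC content, the windows of the highest part had ratios of 0.421 in wild type and 0.286 in eGFP-YAP cells, and the other parts lay between 0.146 and 0.234, and between 0.0917 and 0.149, in the respective lines. Each density class was then cut at its own median GC content, so the parts are not at equal GC content across classes. The lower part ran from 34.0% to 35.3% without gene starts and from 35.4% to 40.8% in the densest class. The upper part ran from 35.4% to 41.5% and from 40.9% to 54.6%. Among the densest windows, those in the lower part gave 0.240 in wild type and 0.176 in eGFP-YAP cells. Those in the upper part gave 0.788 and 0.527. Among windows without gene starts the wild-type ratio was 0.260 in the lower and 0.127 in the upper part by GC content, with overlapping intervals. Over the lower parts by GC content, the ratio from the lowest density class to the highest was 0.260, 0.191, 0.219 and 0.240 in wild type, with no rise, and 0.0800, 0.0879, 0.120 and 0.176 in eGFP-YAP cells. Over the upper parts it was 0.127, 0.200, 0.416 and 0.788 in wild type and 0.0645, 0.163, 0.264 and 0.527 in eGFP-YAP cells. Over windows with at least 5 control loops, the ratio had a rho of 0.277 with gene starts and 0.353 with GC content in wild type (167 windows), and of 0.320 and 0.322 in eGFP-YAP cells (186 windows). The windows share their libraries and depth, so these values are descriptions. Which of gene density and GC content the ratio follows was not tested.

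Windows with control loops often held none after sorbitol, and more often where genes were sparse. Of windows with control loops, 124 of 293 in wild type (42.3%, 36.6 to 48.2) and 156 of 307 in eGFP-YAP cells (50.8%, 45.1 to 56.5) held no sorbitol loop, beside 34.5% and 37.1% over all chromosomes. Of the 283 windows with control loops in both lines, 98 held no sorbitol loop in either. This was the case in 17 of 29 windows without gene starts (58.6%, 38.9 to 76.5), 54 of 127 with 1 to 4 (42.5%), 23 of 98 with 5 to 9 (23.5%) and 4 of 29 with 10 or more (13.8%, 3.89 to 31.7). Windows with few gene starts also held the fewest control loops (1.55 per window without gene starts), and the part of that in these shares was not tested.

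The longest such runs covered 5 windows each. On chromosome 13, 88000001-93000000 held 19 control loops in wild type and 21 in eGFP-YAP cells, and no sorbitol loop. Its only protein-coding gene start is that of GPC5, a cell-surface heparan sulfate proteoglycan. On chromosome 4, 160000001-165000000 held 14 and 16 control loops and no sorbitol loop, among 10 gene starts that include the neuropeptide Y receptors NPY1R and NPY5R and FSTL5. The next run, chromosome 13 from 57000001 to 61000000, held 21 and 20 control loops around PCDH17, another protocadherin, and DIAPH3, an actin nucleator. The inner part of chromosome 4 was low over a longer distance. From 90 to 100 Mb it went from 25 to 2 loops in wild type and from 31 to 1 in eGFP-YAP cells, and from 100 to 110 Mb from 45 to 5 and from 55 to 4. Gene-rich windows could be low too: from 70 to 80 Mb, the stretch with the albumin and CXC chemokine genes, chromosome 4 has 79 gene starts and went from 80 to 11 loops in wild type (0.138, 0.0660 to 0.259) and from 101 to 12 in eGFP-YAP cells (0.119, 0.0594 to 0.217).

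Gain outweighed loss in few windows. More sorbitol than control loops were found in 15 of 295 windows with a loop in wild type (5.08%, 2.87 to 8.25; 8.32% over all chromosomes) and in 7 of 309 in eGFP-YAP cells (2.27%, 0.916 to 4.61; 3.54% over all chromosomes). In 4 windows this held in both lines. The first 1 Mb of chromosome 4 has 18 gene starts and a GC content of 47.9%, and went from 4 to 13 loops in wild type and from 4 to 7 in eGFP-YAP cells. Chromosome 13 from 113000001 to 114000000, with 16 gene starts and 51.8% GC, went from 12 to 13 loops and from 3 to 6. The other windows were chromosome 13 from 19000001 (1 to 4 and 2 to 4 loops) and chromosome 4 from 44000001 (0 to 1 in both lines), which rest on very few loops.

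The windows with most sorbitol-only loops were gene-rich. In the first 1 Mb of chromosome 4, 12 of the 13 wild-type sorbitol loops and all 7 in eGFP-YAP cells were sorbitol-only. In both lines their anchors held the starts of PCGF3, a Polycomb group subunit, IDUA, a lysosomal enzyme, DGKQ, a diacylglycerol kinase, ATP5ME, a subunit of ATP synthase, FGFRL1 and MYL5. At 113 Mb of chromosome 13, all 13 and all 6 sorbitol loops were sorbitol-only, with anchors in both lines at DCUN1D2 and TMCO3, and in wild type also at CUL4A, a ubiquitin ligase scaffold, and TFDP1, a partner of the E2F factors. On chromosome 18 from 12000001 to 13000000 both lines went from 8 to 7 loops, of which 6 were sorbitol-only in each, with anchors at AFG3L2, CEP192 and SEH1L. By contrast, the window with most control-only loops on chromosome 18, from 58000001, went from 16 to 2 loops in wild type and from 13 to 1 in eGFP-YAP cells around NEDD4L, a ubiquitin ligase that acts on ion channels. On chromosome 4 from 88000001, with 10 gene starts that include the HERC5 and PKD2 genes, 15 loops went to 3 and 15 to 2. The window with most loops, chromosome 13 from 27000001 with the homeobox genes CDX2, PDX1 and GSX1, also had the most sorbitol loops: 21 went to 14 loops in wild type, with 5 control loops called again, and 26 to 12 in eGFP-YAP cells, with 7 called again.

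Position along the chromosome moved with these values. Loops were grouped by the distance of their midpoint from the nearest chromosome end. The start of chromosome 13 was not counted as an end. Within 5 Mb the ratio was 0.912 for wild type (0.691 to 1.20) and 0.459 for eGFP-YAP (0.323 to 0.646). From 20 to 40 Mb the ratio was 0.191 (0.150 to 0.241) and 0.113 (0.0853 to 0.147), and farther in it was 0.228 and 0.157. The 28 windows centred within 5 Mb of an end averaged 5.89 gene starts, against 2.84 from 20 to 40 Mb. The 5 windows at each end, a slightly different set used from here on, gave 1.04 (0.778 to 1.40) and 0.485 (0.338 to 0.689). Not every end was alike. The first 5 Mb of chromosome 4, with 64 gene starts, went from 22 to 35 loops in wild type and from 29 to 25 in eGFP-YAP cells. The far end of chromosome 4, with 15 gene starts, went from 9 to 1 and from 6 to 0. The end of chromosome 13 went from 28 to 29 and from 19 to 9, the start of chromosome 18 from 23 to 14 and from 34 to 9, and its end from 12 to 19 and from 13 to 6. Without the 5 windows at each of these 5 ends, the fold between the densest windows and those without gene starts was 1.95 for wild type (1.14 to 3.44) and 3.73 for eGFP-YAP (1.83 to 8.38).

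**Figure D2:**
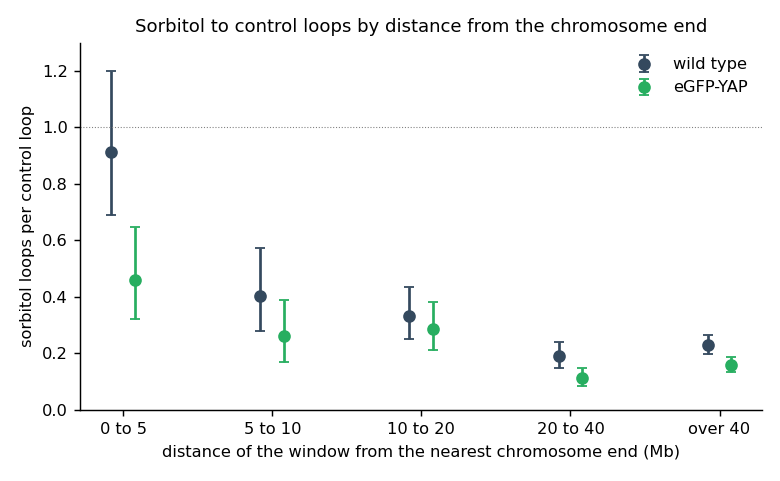
Sorbitol loops per control loop (vertical axis) by distance from the nearest chromosome end in Mb (horizontal axis), over chromosomes 4, 13 and 18. The distance is that of the loop midpoint, although the axis names the window. Points are ratios and bars exact 95% counting intervals; within 5 Mb the ratio is 0.912 in wild type and 0.459 in eGFP-YAP cells, and from 20 to 40 Mb it is 0.191 and 0.113.

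Control-only loops were longer where genes were sparse. The median span of wild-type control-only loops was 492.5 kb in windows without gene starts, 365 kb with 1 to 4, 235 kb with 5 to 9 and 205 kb with 10 or more. In eGFP-YAP cells it was 540, 377.5, 250 and 230 kb. Sorbitol-only medians fell in the same way in wild type (545, 310, 235 and 197.5 kb). They did not in eGFP-YAP cells (85, 220, 175 and 195 kb, the first from 7 loops), and shared loops showed no steady order in either line. Over all windows, control-only loops spanned 280 kb (270 to 290) for wild type and 305 kb (290 to 315) for eGFP-YAP, shared loops 265 kb (225 to 350) and 315 kb (285 to 380), and sorbitol-only loops 250 kb (220 to 270) and 195 kb (165 to 220). Shared and control-only loops did not differ beyond their intervals in either line. Sorbitol-only loops were the shortest in eGFP-YAP cells, and in wild type their interval only touches that of control-only loops. Within one density class the wild-type medians were close, 235 kb for both kinds with 5 to 9 gene starts, while in eGFP-YAP cells sorbitol-only loops spanned 175 kb (135 to 220) there against 250 kb (235 to 265).

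**Figure D3:**
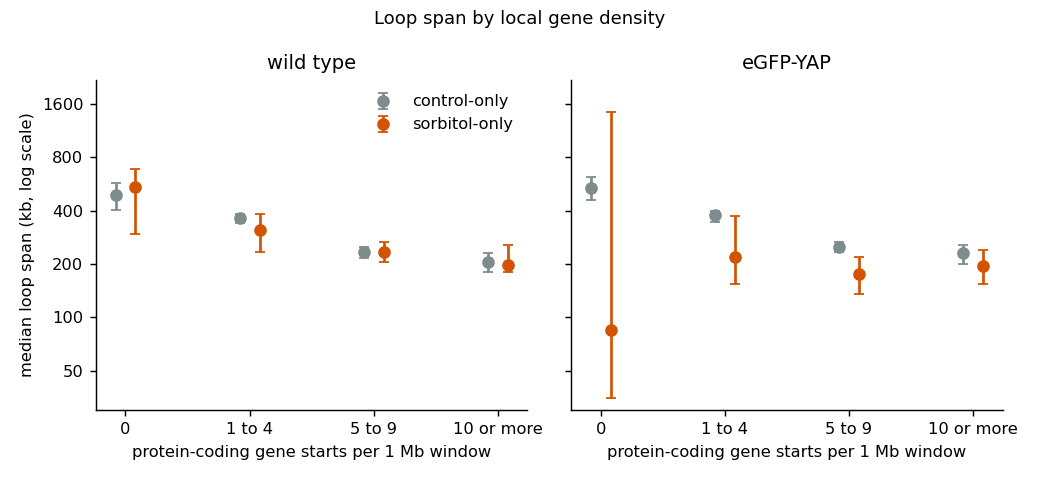
Median loop span in kb (vertical axis, log scale) by protein-coding gene starts of the window (horizontal axis), for control-only and sorbitol-only loops in wild type (left) and eGFP-YAP cells (right). Bars are 95% intervals from order statistics; control-only medians go from 492.5 to 205 kb in wild type and from 540 to 230 kb in eGFP-YAP cells, and the eGFP-YAP sorbitol-only point at 0 gene starts rests on 7 loops.

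The anchors of lost and gained loops held different features. A protein-coding gene start lay in 127 of 3528 control-only anchors in wild type (3.60%, 3.01 to 4.27), in 8.41% (5.06 to 13) of shared anchors and in 141 of 846 sorbitol-only anchors (16.7%, 14.2 to 19.4). For eGFP-YAP the corresponding values were 25.5% (21.7 to 29.5) where the loop was sorbitol-only, 10.1% (6.50 to 14.8) where it was shared and 4.46% (3.82 to 5.17) where it was control-only. Of all 73568 bins of 5 kb on the 3 chromosomes, 1.68% held a gene start. The median distance from an anchor to the nearest gene start was 73.9 kb for control-only, 61.9 kb for shared and 23.3 kb for sorbitol-only loops in wild type, and 64.0, 35.9 and 13.2 kb in eGFP-YAP cells, against 149 kb for all bins. The difference was also present within a density class: with 5 to 9 gene starts per window, 4.65% of control-only and 19.1% of sorbitol-only anchors held one in wild type, and 5.35% and 28.9% in eGFP-YAP cells.

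The CTCF core motif, read from both strands and allowing 1 mismatch, was distributed differently. It lay in 7.84% of all bins. In wild type, shared anchors held it most often (32.7%, 26.5 to 39.4), then control-only anchors (19.6%, 18.3 to 21.0) and sorbitol-only anchors (15.8%, 13.4 to 18.5). The eGFP-YAP anchors followed the same order, with 46.1% (39.5 to 52.8), 28.0% (26.5 to 29.4) and 15.5% (12.5 to 19). The wild-type intervals of control-only and sorbitol-only anchors overlap narrowly, and those of eGFP-YAP cells lie well apart. Where both anchors held motifs of a single orientation, they pointed towards each other in 48 of 68 control-only, 10 of 12 shared and 7 of 13 sorbitol-only loops in wild type, and in 113 of 150, 25 of 27 and 5 of 7 in eGFP-YAP cells. The sorbitol-only counts are too few to set apart from the others. A motif match is a description of sequence, not of bound CTCF. CG dinucleotides, which cluster at promoters, numbered a median of 40 per control-only, 52 per shared and 59 per sorbitol-only anchor in wild type, 40, 56 and 69 in eGFP-YAP cells, and 34 over all bins.

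**Figure D4:**
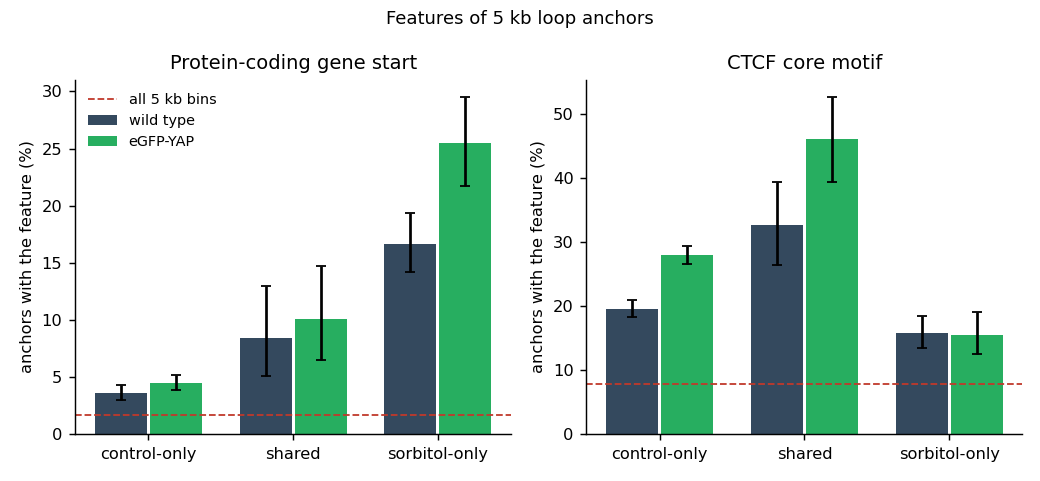
Share of 5 kb loop anchors in percent (vertical axes) that hold a protein-coding gene start (left) or a CTCF core motif (right), by loop class and line. Bars are shares with exact 95% counting intervals, and the dashed line is the share of all 5 kb bins of the 3 chromosomes (1.68% and 7.84%); gene starts are most frequent at sorbitol-only anchors (16.7% and 25.5%) and motifs at shared anchors (32.7% and 46.1%).

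Loops matched between the lines show this most plainly. Of the control-only loops, 496 matched between the lines (28.1% of the wild-type and 26.2% of the eGFP-YAP loops), of the sorbitol-only loops 55 (13% and 21.9%), and 30 loops were called in all 4 lists. A gene start lay in both anchors, taking the anchors of either line, in 1 of 496 control-only loops (0.202%, up to 1.12), 3 of 30 loops of all 4 lists (10.0%, 2.11 to 26.5) and 17 of 55 sorbitol-only loops (30.9%, 19.1 to 44.8). With the wild-type anchors alone the count of sorbitol-only loops was 7, and with the eGFP-YAP anchors alone 11, against 1 control-only loop each time. Over all loops of a class, matched or not, the share with a gene start in both anchors was 21 of 423 sorbitol-only loops in wild type (4.96%) and 29 of 251 in eGFP-YAP cells (11.6%), against 3 of 1764 (0.170%) and 6 of 1895 (0.317%) control-only loops. The lone control-only pair joined EPG5, an autophagy gene, and PSTPIP2 on chromosome 18.

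**Figure D5:**
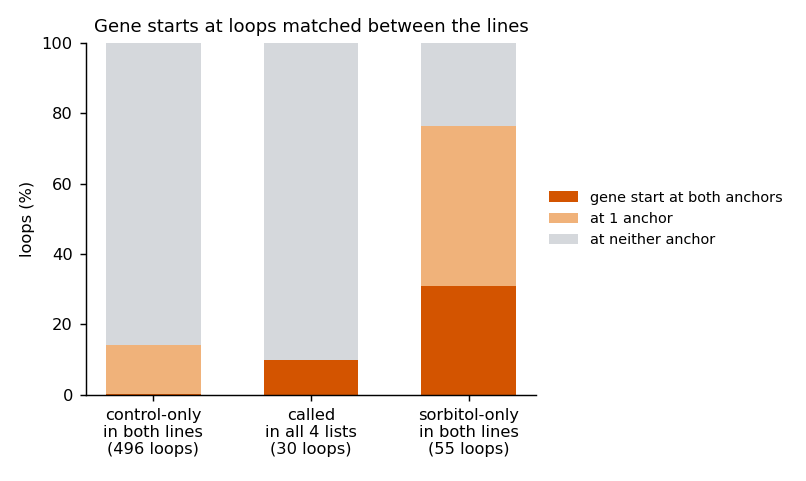
Share of loops in percent (vertical axis) with a protein-coding gene start at both anchors, at 1 anchor or at neither, for loops matched between wild type and eGFP-YAP cells. The anchors of either line were taken. A gene start lies at both anchors in 1 of 496 control-only loops, 3 of 30 loops called in all 4 lists and 17 of 55 sorbitol-only loops.

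Of the 17 sorbitol-only pairs, the highest in score joined AFG3L2, a subunit of the mitochondrial m-AAA protease, to SEH1L, a nuclear pore protein, over 565 kb of chromosome 18, at a mean percentile of 99.1 of the sorbitol lists. Its left anchor held the AFG3L2 start in the eGFP-YAP list and lay 5 kb from it in the wild-type list. On chromosome 4, 2 neighbouring loops formed a chain from LAP3, an aminopeptidase, over 235 kb to the shared start region of DCAF16 and NCAPG, a condensin subunit, and on over 210 kb to LCORL. A loop of 200 kb from MED28, a Mediator subunit, to the same DCAF16 and NCAPG region was among the 3 such loops of all 4 lists. These loops matched within 10 kb, but their gene starts did not lie in the anchors of every list. In wild-type control, no anchor held the start of MED28, DCAF16 or NCAPG. For these pairs too, a gene is named where its start lay in the anchor of either line. Others on chromosome 4 joined EIF4E, the cap-binding translation factor, to METAP1 (60 kb), and RUFY3 to GRSF1 (135 kb). A loop of 205 kb joined RCHY1 and THAP6 to the stress granule gene G3BP2 and USO1. The EIF4E, RCHY1 and THAP6 starts lay in eGFP-YAP anchors only. Another loop, of 135 kb, paired SLBP, which binds histone messages, TACC3 and TMEM129 with LETM1. There the SLBP and TACC3 starts lay in the eGFP-YAP anchor, and the TMEM129 and LETM1 starts in the wild-type anchors. In neither line alone did SLBP or TACC3 face LETM1. On chromosome 13 a loop of 55 kb joined BORA and MZT1, both of cell division, to DIS3, an RNA exosome nuclease, and PIBF1. The BORA and MZT1 starts lay in the wild-type anchor only. Another loop of all 4 lists joined HNRNPD to HNRNPDL and ENOPH1 (60 kb). The last joined BLOC1S4 with MRFAP1L1 to GRPEL1 (360 kb). No wild-type sorbitol anchor held the HNRNPD start, and no eGFP-YAP control anchor those of HNRNPDL and ENOPH1. The BLOC1S4 start lay in no wild-type control anchor, and the MRFAP1L1 start lay in an anchor of the wild-type control list only. Of the 55 sorbitol-only loops, 9 lay in the first 5 Mb of chromosome 4, against 4 of the 496 control-only loops. Matched or not, this stretch held 32 of 423 sorbitol-only loops in wild type and 24 of 251 in eGFP-YAP cells. Of all control loops it held 22 of 1871 and 29 of 2009.

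The promoter of AFG3L2 is shown because it lies in the left eGFP-YAP anchor of the highest-scoring of these pairs. The 250 bases before its start (RefSeq, GRCh38.p14, chr18:12377228-12377477, minus strand, with no annotated exon there) hold 31 CG dinucleotides, in capitals.
AFG3L2: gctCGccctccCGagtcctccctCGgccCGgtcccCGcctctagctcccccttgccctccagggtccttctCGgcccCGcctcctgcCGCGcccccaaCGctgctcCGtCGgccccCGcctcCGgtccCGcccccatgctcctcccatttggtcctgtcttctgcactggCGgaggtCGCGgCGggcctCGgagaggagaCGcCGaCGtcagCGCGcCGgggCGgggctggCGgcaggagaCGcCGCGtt
This count lies at percentile 86.4 among 1694 promoters of 1133 protein-coding genes of the 3 chromosomes found in RefSeq, whose median was 17. SEH1L, at the other anchor, has 20 in the same stretch, as does PCDH9, near the longest control-only loop, and KLHL1, enclosed by the longest loop of all 4 lists, has 5. The promoters at these anchors were not measured as a group.

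The control-only loops that ranked highest in both lines lay mostly away from gene starts. On chromosome 18 the loop from within SKOR2 to a site 178 kb from SMAD2 spanned 540 kb (percentile 99.0). On chromosome 13 a loop of 1230 kb ran from within RFC3, a replication factor, to within NBEA, a neuronal trafficking protein (percentile 96.9). On chromosome 4 a loop of 190 kb lay between ADRA2C, an adrenergic receptor, and OTOP1, a proton channel (percentile 99.7), next to the top sorbitol-only loop of that chromosome, which spanned 170 kb and began 16 kb from ADRA2C (percentile 96.3). The top sorbitol-only loop of chromosome 13, with anchors 380 and 475 kb from the start of SLITRK6, the nearest gene, encloses 50000 unsequenced bases. On chromosome 4 the top loop of all 4 lists spanned 510 kb. It ran from within EGF, the epidermal growth factor gene, to an intron of ENPEP, an aminopeptidase. Its counterpart on chromosome 18 spanned 380 kb, from a site 26 kb from the start of MYL12B, a myosin light chain, to within DLGAP1.

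Developmental and adhesion genes, for which gene-poor chromosomes are known, were counted beside all genes. Of all 1345 protein-coding gene names of the 3 chromosomes, 125 (9.29%) had their start in an anchor in wild-type control, 149 (11.1%) in wild-type sorbitol, 178 (13.2%) in eGFP-YAP control and 158 (11.7%) in eGFP-YAP sorbitol. The number of genes at anchors was therefore close before and after sorbitol, while the number of loops was several times smaller. Of 33 developmental regulators, 6 had their start in an anchor in wild-type control (18.2%, 6.98 to 35.5), 6 in wild-type sorbitol, 6 in eGFP-YAP control and 2 in eGFP-YAP sorbitol (6.06%, 0.743 to 20.2). Only POU4F1 and ZIC2, both neural transcription factors, were among them in both lines. ZIC2 had 2 loops in wild-type control, 1 in wild-type sorbitol, 2 in eGFP-YAP control and 0 in eGFP-YAP sorbitol. Of 29 adhesion and guidance genes, 7 had their start in an anchor in wild-type control (24.1%, 10.3 to 43.5), 3 in wild-type sorbitol (10.3%), 5 in eGFP-YAP control (17.2%) and 3 in eGFP-YAP sorbitol (10.3%), and PCDH7, SLIT2 and SLITRK6 did in both lines. SLITRK6, a synaptic adhesion gene in a desert of chromosome 13, had 3 and 1 loops in wild type and 3 and 2 in eGFP-YAP cells. SLIT2, an axon guidance ligand, had 2 and 2 loops in wild type and 0 and 1 in eGFP-YAP cells. The control shares of both lists lay above those of all genes, of which only the wild-type adhesion interval leaves out the value of all genes, and no test was made.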

How the data were processed

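In situ Hi-C libraries were made with MboI, per the labels' protocols. The authors deposited 4 loop lists with the column headers of the SIP caller at 5 kb, and the deposited peak score of each loop, which has no fixed scale, served only to rank loops within a list, except where the control list's median was applied to both lists of a line. Aligner, caller settings and the replicates pooled are not given in the sources used here. The build, hg38, is named in the submitters' processing notes. All anchors lay within its chromosome lengths, and 0 columns lacked a group.

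Gene starts came from GENCODE release 44 and bases from hg38. Matching was tested on simulated loops. The fold and the median, with their intervals, were checked on fixed numbers, and the intervals of shares and ratios were not checked. Python 3.11.15, numpy 2.4.6, scipy 1.17.1, pandas 2.3.3 and matplotlib 3.10.9 were used. Loops, windows and genes were named by rank: the matched loop with the highest mean score percentile per chromosome and the longest per class, and the windows with most loops per class. The gene pairs, the stretches of chromosome 4 and the promoters were picked after their values were seen. Members and lists were chosen with earlier results of these data known. The labels speak of HEK293 and the growth protocol of HEK293T.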

Additional observations from a re-analysis of the deposited data

Results flagged for a closer look

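Out of 18 contrasts computed for each line, 4 took opposite signs. None of these differences was tested, since each line has 1 list per condition. At the start of chromosome 4 (5 Mb), the sorbitol count minus the control count came to 13 (wild type) and -4 (eGFP-YAP). At the end of chromosome 13 it was 1 and -10, and at the end of chromosome 18 it was 7 and -7. Cell line and the source named in the lists cannot be told apart in these values. Median spans, shared less control-only, differed by -15 kb (wild type) and by 10 kb (eGFP-YAP), within the counting intervals of the medians.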

How the results depend on the processing

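Of 83 alternative values, 37 lay within the 95% interval of the value reported, 46 outside it. The difference in median span between shared and control-only loops changed sign in wild type, from 265 against 280 kb to 340 against 325 kb in the upper 50% by score. Sorbitol loops per control loop came to 0.319 (wild type) and 0.210 (eGFP-YAP) in the upper 50% of each list by score, 0.125 in eGFP-YAP cells with the control list's median score as minimum for both lists, and 0.243 in wild type without the 5 Mb next to each end, an alternative chosen after seeing the data. Requiring identical anchor bins gave 0.428% and 1.05% of control loops called again and 98.5% and 94.2% of sorbitol loops without a partner. Matching at 25 kb gave 10.7% and 8.11%, and 63.2% and 57.8%, and the upper 50% by score gave 7.27% called again in eGFP-YAP cells. The fold over gene density stayed above 1 in 23 of 23 alternatives, with its lower bound above 1 in 20. It was 1.55 and 1.5 for loops under 200 kb, with intervals that include 1, and 14.2 on chromosome 4 alone and 1.83 on chromosome 18 alone in eGFP-YAP cells. With the control list shortened to the length of the sorbitol list (chosen after seeing the data) it was 2.52 and 6.42. Chromosome 18 alone gave no fold in wild type, with 0 sorbitol loops in the lowest class. In the upper 50% by score the median spans of control-only, shared and sorbitol-only loops were 325, 340 and 280 kb in wild type and 350, 387.5 and 275 kb in eGFP-YAP cells. Gene starts lay in 8.73%, 18.7% and 35.0% of these anchors in wild type, and 12.0%, 26.8% and 42.4% in eGFP-YAP cells, with anchors widened by 5 kb, and in 10.1%, 18.7% and 22.9%, and 10.8%, 19.3% and 35.9%, with genes of all types. With no mismatch, the motif lay in 4.25%, 10.3% and 3.90%, and 6.86%, 15.8% and 3.59%. In widened anchors it lay in 42.1%, 57.5% and 34.6%, and 49.2%, 65.4% and 37.1%. The values kept the order of the classes in these alternatives, but some wild-type intervals overlapped. With no mismatch these were 3.61 to 4.97 for control-only and 2.70 to 5.43 for sorbitol-only anchors. With genes of all types they were 13.7 to 24.6 for shared and 20.1 to 25.9 for sorbitol-only anchors. No paired analysis was possible because each list pools its replicates and its columns carry no replicate number, so no replicate could be left out either. Loop number is the only measure of depth in the lists, and it limits chromosome 18 and windows without gene starts most.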
